A study of Mus musculus with 6 samples.

Results

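Cholesterol genes were compared between cultured megakaryocytes that lack p45 and wild-type megakaryocytes. The 28 genes were taken from a fixed list and matched on the arrays through the RefSeq accession of each probe. All 28 were found, and all 28 were among the 18210 genes tested, since each had a probe well above background on all 6 arrays. They comprise 19 enzymes that make cholesterol and its isoprenoid precursors, 5 regulators of the SREBP system, 2 intracellular sterol carriers and 2 efflux transporters. No lipoprotein uptake receptor is among the 28, and uptake receptors are given from a separate list. In p45-/- cells the gene Nfe2 is disrupted, which encodes p45, the larger partner of the NF-E2 heterodimer. The comparison group, WT, carried no named mutation. All cultures were of primary megakaryocytes started from E13.5 C57BL/6 fetal liver, with no treatment named. There were 3 samples a group, which the series' design calls independent experiments, and how many livers went into a culture is not stated. The labels give cultured megakaryocytes as the source but whole embryos in the extraction protocol, and this contradiction was not resolved.

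Cells make cholesterol from acetyl-CoA through mevalonate, farnesyl diphosphate, squalene and lanosterol. The genes of this route are switched on together by SREBP transcription factors, which are held in the endoplasmic reticulum by the escort protein SCAP and the INSIG proteins while sterol is plentiful. When sterol is short, SREBP is released, cut and moved to the nucleus. When sterol is in excess, LXR receptors switch on the efflux transporters ABCA1 and ABCG1. Megakaryocytes build a large demarcation membrane system before they shed platelets, and cholesterol is a component of such membranes.

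RefSeq promoters of assembly GRCm38.p6 were found for 22 of the 28 genes, 30 promoters in all, and the 250 bases before the annotated start were read on the gene's own strand. Hmgcs1, Mvk and Msmo1 are shown as examples among the enzyme genes with several NF-Y boxes, Srebf2 as their regulator, and Abca1 as an efflux gene. Capitals mark the NF-Y box CCAAT and the SREBP letters TCACNCCA on either strand, so ATTGG is the same box read from the other strand. The windows are chr13:119690101-119690350 (plus strand), chr5:114444019-114444268 (plus), chr8:64733579-64733828 (minus), chr15:82147019-82147268 (plus) and chr4:53159896-53160145 (minus).
Hmgcs1: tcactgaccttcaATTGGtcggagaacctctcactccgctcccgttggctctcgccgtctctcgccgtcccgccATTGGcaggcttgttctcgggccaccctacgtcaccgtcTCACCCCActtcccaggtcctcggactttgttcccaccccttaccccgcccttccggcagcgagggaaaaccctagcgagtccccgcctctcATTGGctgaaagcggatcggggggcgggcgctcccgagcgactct
Mvk: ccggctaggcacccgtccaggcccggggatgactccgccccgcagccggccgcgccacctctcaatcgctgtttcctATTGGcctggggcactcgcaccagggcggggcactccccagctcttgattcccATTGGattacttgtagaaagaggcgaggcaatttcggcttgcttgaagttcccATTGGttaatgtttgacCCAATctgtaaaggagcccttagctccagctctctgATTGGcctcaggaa
Msmo1: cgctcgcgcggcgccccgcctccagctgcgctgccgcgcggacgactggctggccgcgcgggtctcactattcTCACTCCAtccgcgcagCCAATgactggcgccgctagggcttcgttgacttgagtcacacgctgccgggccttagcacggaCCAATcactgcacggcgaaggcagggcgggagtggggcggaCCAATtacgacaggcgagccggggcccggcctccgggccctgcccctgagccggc
Srebf2: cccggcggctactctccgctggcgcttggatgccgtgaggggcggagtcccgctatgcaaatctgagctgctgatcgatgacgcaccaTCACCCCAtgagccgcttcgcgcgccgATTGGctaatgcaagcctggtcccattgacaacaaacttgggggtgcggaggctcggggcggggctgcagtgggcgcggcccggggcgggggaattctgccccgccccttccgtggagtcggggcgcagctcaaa
Abca1: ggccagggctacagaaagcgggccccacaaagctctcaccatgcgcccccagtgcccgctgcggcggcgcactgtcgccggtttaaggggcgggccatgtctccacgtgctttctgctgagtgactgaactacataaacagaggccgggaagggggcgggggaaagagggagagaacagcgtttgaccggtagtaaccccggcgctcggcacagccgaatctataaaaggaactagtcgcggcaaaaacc

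The CCAAT box was held by 15 of the 16 enzyme genes with a promoter (93.8%), against 40.3% of the 10369 tested genes with a promoter and 37.5% of all 27025 genes in the table. Mvk held 5 such boxes, while Hmgcs1, Msmo1, Ggps1 and Hsd17b7 held 3 each. Acat2 was the enzyme gene without the box. The SREBP letters were held by 2 of these enzyme genes, Hmgcs1 and Msmo1, and by Srebf2, against 4.07% of tested genes. In these 3 promoters the SREBP letters and the CCAAT boxes did not overlap. The Sp1 letters GGGCGG were held by 14 of the 16 enzyme genes (87.5%), against 60.5% of tested genes, and the E-box CACGTG by 3, against 9.62%. The core letters of an NF-E2 site, TGANTCA, were held by 2 of the 16, Msmo1 and Dhcr7, against 5.75% of tested genes. The extended NF-E2 motif was held by 0 of the 22, and by 0.299% of tested genes. The promoter of Abca1 held 2 Sp1 matches and 1 E-box. Both strands were searched, and a match is a run of letters, not a measured binding site.

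Levels are log2 processed signals minus the 75th percentile of the array, so 0 is the 75th percentile and a step of 1 is a doubling. Levels of different probes are not comparable, so only differences are set against each other. The 75th percentile of the signal lay between 135 and 589, lowest on p45-/- array 1, and an array had 57.8% to 64.8% of its probes well above background. Across the genes tested, p45-/- array 1 correlated with the other arrays at 0.782 to 0.884, and these with each other at 0.941 to 0.984. In the order of the replicates, Nfe2 levels were 4.87, 6.43 and 6.34 in p45-/- and 5.24, 6.57 and 6.33 in WT. These ranges overlap, and the position of its probe relative to the deleted part is not known, so Nfe2 does not check the labels. All 12 megakaryocyte markers were well above background on all arrays, with a summed level of 956 to 2006 in p45-/- and 1162 to 2012 in WT. The summed level of 11 erythroid markers was 31.6 to 106 in p45-/- and 3.32 to 21.6 in WT, and its part in the differences given here was not tested.

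None of the 28 genes differed between the groups by limma. Without a block, 0 of the 28 passed an adjusted p of 0.05, as did 0% of all genes tested, and the members' adjusted p lay between 0.740 and 0.981. At an unadjusted p under 0.05 there were also 0 members, against 3.33% of all genes lower and 2.62% higher. With the replicate number as a block, 0 of the 28 passed, against 0.0275% of all genes, and their adjusted p lay between 0.191 and 0.974. For 0 members did the groups not overlap, against 8.43% of all genes lower and 4.77% higher without overlap. The group mean in p45-/- was lower for 24 of the 28 genes, where 53.5% of all genes were lower. It was lower for 20 of the 28 with quantile normalization and for all 28 with median scaling, under which the median difference over all genes was -0.56.

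The 19 synthesis enzymes had a median log2 difference of -0.36, p45-/- minus WT, beside -0.048 over all genes tested. The 12 megakaryocyte markers had a median of -0.40, with 10 of 12 lower and 7 of 12 lower in all 3 pairs. In pairs 1, 2 and 3 their medians were -0.40, -0.30 and -0.47, and the enzymes' median was the larger difference in pair 1 only. Of the erythroid markers 10 of 11 had a higher group mean (median 2.07), and 10 were higher in all 3 pairs. All 10 tested hepatoblast and hepatocyte markers (median 0.94) and all 10 stromal and fibroblast markers (median 0.52) also had a higher group mean. Of these, 3 and 1 were higher in all 3 pairs, and between the replicate 1 arrays their medians were -0.13 and -0.99. In either fit 0 markers of these 4 lists passed. With the replicate block the smallest limma adjusted p was 0.0512, just above the threshold, for both the megakaryocyte and the erythroid markers. The part of cell makeup in the enzymes' difference was not tested. In the pairs of arrays with replicate numbers 1, 2 and 3 the medians were -0.56, -0.17 and -0.22 for the enzymes, beside -0.37, 0.12 and 0.064 over all genes. Within slide 2, which holds pairs 1 and 2, the enzymes' median was -0.38, and pair 3 alone lies on slide 1. With quantile normalization it was -0.11, beside -0.025 over all genes. Of the 19 enzymes, 12 were lower in all 3 pairs, where 23.6% of all genes tested were, and 0 were higher in all 3 pairs, where 23.3% were. With quantile normalization 7 of the 19 were lower in all 3 pairs, against 22.2% of all genes. Leaving out single arrays moved the enzymes' median widely. Without p45-/- replicate 1, 2 or 3 it was 0.37, -0.73 and -0.66, and without WT replicate 1, 2 or 3 it was -0.92, -0.064 and -0.024. Leaving out a single array keeps the array of the same number in the other group, so differences between replicates enter these values. Without both replicate 1 arrays the enzymes' median was -0.24.

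**Figure D1:**
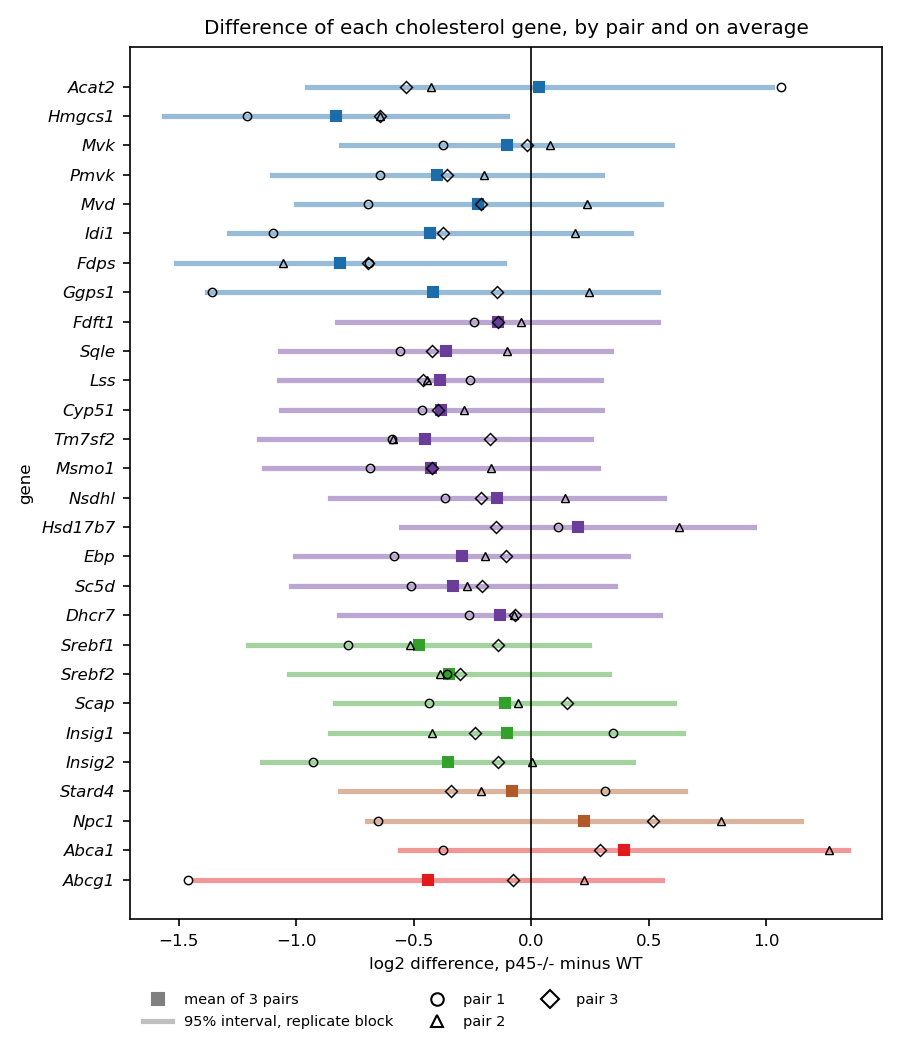
Log2 difference of each cholesterol gene, p45-/- minus WT. Squares are means over the 3 pairs, bars are 95% intervals from limma with the replicate block, and open symbols are the single pairs. Most squares lie left of 0, as for 24 of the 28 genes, and the bars of 26 genes cross 0.

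Among the enzymes before farnesyl diphosphate and its branch, Hmgcs1 and Fdps had the largest differences. Hmgcs1 encodes the cytosolic HMG-CoA synthase, an early step of the mevalonate route. Its level was 2.65, 5.28 and 5.24 in p45-/- and 3.87, 5.92 and 5.88 in WT, in the order of the replicates. The p45-/- array was the lower one in every pair, but the groups overlapped, and array 1 was low in both. The difference was -0.83 (1.78-fold lower, SE 0.90, limma adjusted p = 0.761, and SE 0.30 with adjusted p = 0.197 with the replicate block). The other Hmgcs1 probe gave -0.89.

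Fdps encodes farnesyl diphosphate synthase, which makes the last precursor shared by sterols and prenyl groups. Its level was 2.30, 4.26 and 4.49 in p45-/- and 2.99, 5.32 and 5.19 in WT, in the order of the replicates. Pairs 1, 2 and 3 differed by -0.69, -1.06 and -0.70, each lower in p45-/-. The mean difference was -0.81 (1.76-fold lower, limma adjusted p = 0.754, and 0.191 with the replicate block). Hmgcs1 and Fdps were the 2 members with an unadjusted p under 0.05 in the blocked fit, 0.031 and 0.029. As 5.96% of all genes were lower at that level, 2 of 28 is close to the background. No member was higher at that level, against 14.3% of all genes.

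The kinases and the decarboxylase that act on mevalonate had smaller differences, -0.11 for Mvk, -0.40 for Pmvk and -0.23 for Mvd. Idi1, the isopentenyl diphosphate isomerase, differed by -1.10, 0.18 and -0.38 in pairs 1, 2 and 3. Ggps1 encodes geranylgeranyl diphosphate synthase, which leads to protein prenylation rather than to sterol. Its level was -0.36, 1.08 and 0.64 in p45-/- and 1.00, 0.84 and 0.79 in WT, so only p45-/- array 1 stood below the others. Acat2, the cytosolic acetoacetyl-CoA thiolase, ran the other way on that array. Its level was -0.83, -2.16 and -2.02 in p45-/- and -1.90, -1.74 and -1.49 in WT, and its pairs differed by 1.06, -0.43 and -0.53. Whether its single probe also reads Acat3, a related gene on the same chromosome, was not tested.

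The 11 enzymes from squalene to cholesterol had differences within a narrow range, from -0.45 for Tm7sf2 to 0.20 for Hsd17b7, and 9 of them were lower in all 3 pairs. Fdft1, squalene synthase and the step that commits to sterol, had levels of 0.85, 2.80 and 2.47 in p45-/- and 1.10, 2.84 and 2.61 in WT. Each pair lay close together, with differences of -0.25, -0.043 and -0.14. A dimmer Fdft1 probe differed by 0.61, so the probes of this gene disagreed in sign. Sqle encodes squalene epoxidase, an oxygen-dependent and rate-controlling step. Its level was 2.25, 4.54 and 4.32 in p45-/- and 2.81, 4.65 and 4.75 in WT, a difference of -0.36 (SE 0.29, limma adjusted p = 0.550 with the replicate block). Array 1 was the lowest of each group, and the p45-/- array the lower of each pair.

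Lss, lanosterol synthase, had levels of -1.41, 1.32 and 0.85 in p45-/- and -1.15, 1.77 and 1.31 in WT. Cyp51, which removes a methyl group from lanosterol, had levels of -1.31, 1.16 and 1.43 in p45-/- and -0.84, 1.45 and 1.82 in WT. Both differed by about the same amount, -0.39 and -0.38, and both were lower in every pair. Msmo1 and Nsdhl, which remove the next methyl groups, differed by -0.43 and -0.15. Hsd17b7, the ketoreductase of the same complex, differed by 0.11, 0.63 and -0.15 in pairs 1, 2 and 3. The late enzymes Ebp, Sc5d and Dhcr7, an isomerase, a desaturase and the reductase that ends one branch of the route, differed by -0.30, -0.33 and -0.13. The bright Dhcr7 probe was lower in every pair, while a dimmer one gave 0.097.

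The intervals show how far the data limit these differences. In the blocked fit, the 95% interval lay within 2-fold in either direction for 8 of the 28 genes. These were the enzymes Mvk, Fdft1, Nsdhl, Hsd17b7 and Dhcr7, the regulators Scap and Insig1, and Stard4. For Lss it ran from -1.07 to 0.30 and for Hmgcs1 from -1.56 to -0.10. Without the block the interval lay within 2-fold for 0 genes. The intervals hold for the 75th percentile scaling only. With median scaling the median difference of the 28 genes moved from -0.34 to -0.85, and the intervals do not cover that shift. Each interval is that of the probe used, and does not cover other probes of the gene. Passing probes not used differed by 0.61 for Fdft1, 0.28 for Insig1, and -0.61 and -0.47 for Stard4. Those of Mvk, Nsdhl, Hsd17b7 and Dhcr7 lay between -0.27 and 0.11. Of the 19 enzymes, all but Ggps1 differed between the groups by less than the SD within either group.

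The 2 arrays with replicate number 1 were the lowest for most of the enzymes, whatever the genotype. For 17 of the 19 enzymes, and for all 11 from squalene to cholesterol, both replicate 1 arrays lay below the other 4. This held for 22.1% of all genes tested. The exceptions were Acat2 and Ggps1. Taking the mean of arrays 2 and 3 minus array 1, the enzymes' median was 2.12 in p45-/- and 1.80 in WT, beside 0.36 and -0.089 over all genes. For Lss the values were 2.50 and 2.69, for Cyp51 2.60 and 2.48, for Hmgcs1 2.60 and 2.03. This difference between replicates was thus several times the difference between genotypes for these genes. It was noticed in these data, with 1 replicate 1 array per group, and has no test.

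**Figure D2:**
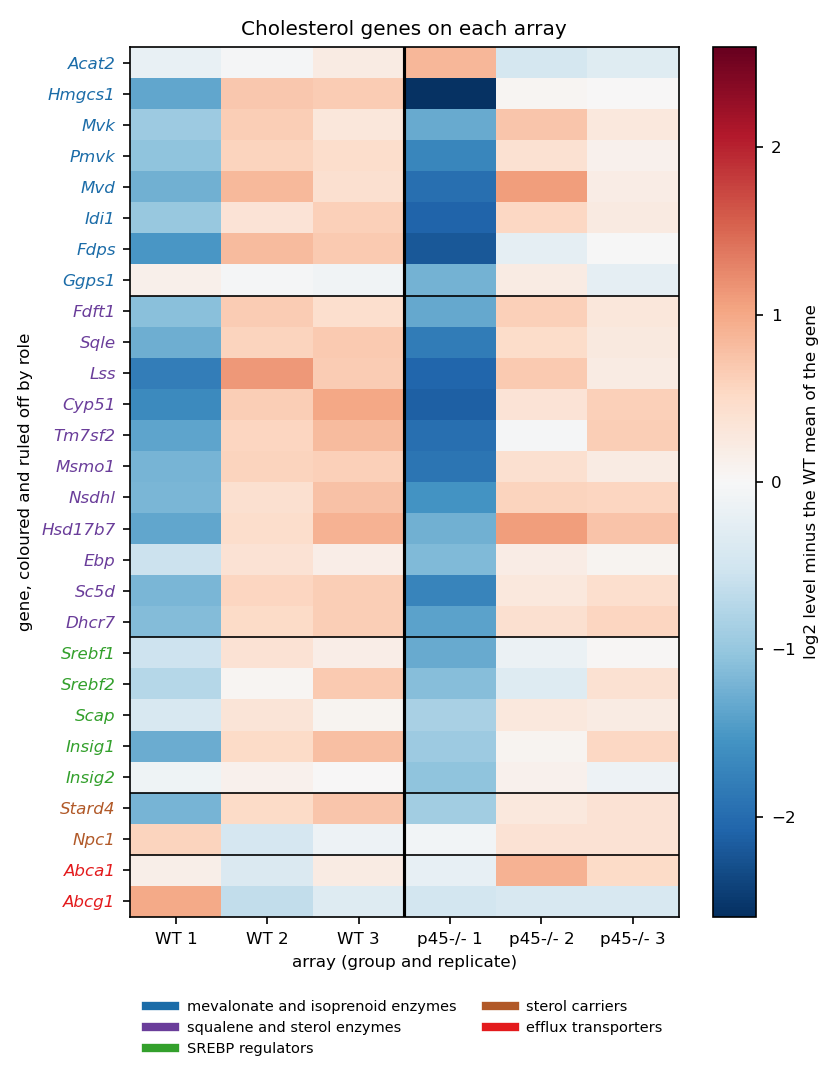
Level of the 28 cholesterol genes on each array as the log2 level minus the WT mean of the gene, with blue below and red above that mean. Columns are the 3 WT and 3 p45-/- arrays, and rules separate the roles. The columns of WT 1 and p45-/- 1 are blue for 17 of the 19 enzymes, while the efflux genes at the bottom are blue on p45-/- 1 but red on WT 1.

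The count of 17 of 19 was the same with quantile normalization, median scaling and normexp background, where 22.5%, 41.1% and 20.4% of all genes had both replicate 1 arrays lowest. Replicates 1 and 2 shared slide 2 and its scan, so slide does not separate them. In the same arrays 10 of 12 megakaryocyte markers also had both replicate 1 arrays lowest, with medians of 1.51 in p45-/- and 1.42 in WT for arrays 2 and 3 minus array 1. The summed megakaryocyte level was 956 and 1162 on the replicate 1 arrays and 1481 to 2012 on the others. The summed level of 11 macrophage and monocyte markers was 672 on WT array 1 and 270 to 399 on the other 5, with Cd163 not well above background on any array. The 75th percentile of the signal was also lowest on these arrays, 135 and 339. The part of cell makeup or of signal strength in the replicate difference was not tested, and in bulk RNA fewer cells of a type and less RNA per cell cannot be told apart.

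**Figure D3:**
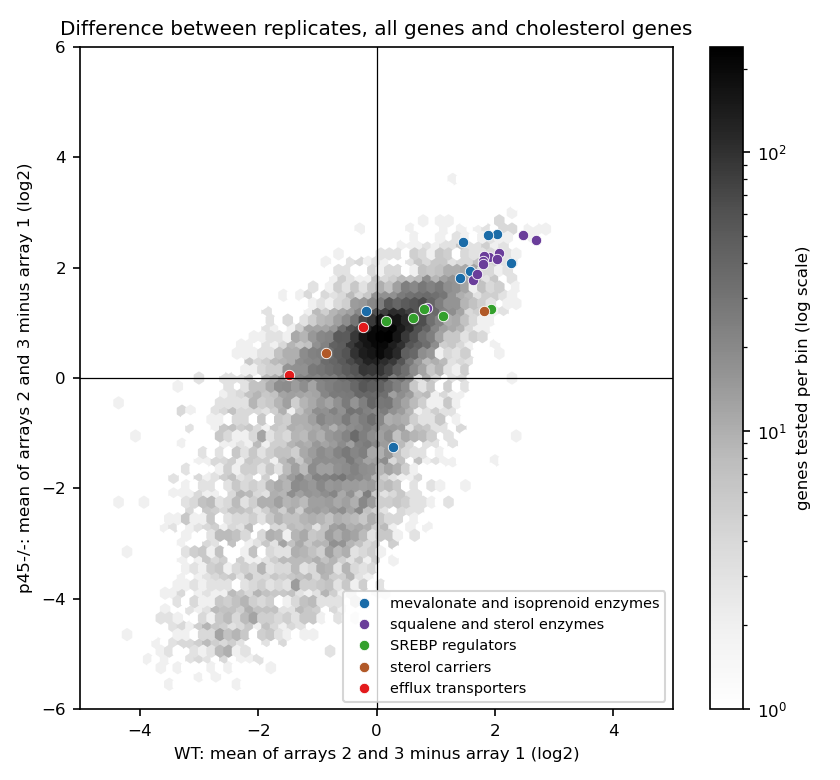
Mean of arrays 2 and 3 minus array 1 in WT (horizontal) and in p45-/- (vertical), both log2. Grey bins count all genes tested on a log scale, and coloured points are the 28 cholesterol genes by role. The enzymes gather at the upper right, around their medians of 1.80 and 2.12, and Abcg1 lies left of 0 at -1.48.

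The regulators varied less between replicates than the enzymes, with medians of 1.13 in p45-/- and 0.80 in WT for arrays 2 and 3 minus array 1. Srebf2 encodes the SREBP form that chiefly drives cholesterol synthesis. Its level was -0.61, 0.16 and 0.88 in p45-/- and -0.25, 0.55 and 1.19 in WT. The pairs differed by -0.36, -0.39 and -0.30, all lower in p45-/- and nearly equal, with a mean of -0.35 (SE 0.28, limma adjusted p = 0.550 with the replicate block). Srebf1, whose products chiefly drive fatty acid synthesis, differed by -0.78, -0.52 and -0.14, also lower in every pair. Scap, the escort protein that carries SREBP to the Golgi, differed by -0.11.

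Insig1, the SREBP-induced retention protein, had levels of -1.60, -0.58 and -0.12 in p45-/- and -1.94, -0.16 and 0.12 in WT. It was higher in p45-/- in pair 1 and lower in pairs 2 and 3, and its probes gave -0.11 and 0.28. Insig2, which is not driven by SREBP in the same way, had levels of 0.12, 1.26 and 1.03 in p45-/- and 1.05, 1.26 and 1.17 in WT. In WT its array 1 was 0.17 below the mean of the other arrays, where that of Insig1 was 1.93 below. In p45-/- array 1 was 1.03 below for Insig2 and 1.25 below for Insig1, so the contrast was large in WT only. It was not tested.

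The sterol carriers differed from each other. Stard4, a soluble sterol carrier and SREBP target, had levels of 0.69, 1.87 and 1.96 in p45-/- and 0.38, 2.08 and 2.30 in WT. Like the enzymes it was lowest on both replicate 1 arrays. Its 3 probes ranged from -0.61 to -0.081 in group difference. Npc1, which exports cholesterol from lysosomes, had levels of 0.23, 0.68 and 0.69 in p45-/- and 0.88, -0.12 and 0.17 in WT. It was highest on WT array 1, and its pairs differed by -0.65, 0.81 and 0.52.

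The efflux transporters did not share a direction. Abca1 passes cholesterol to lipid-poor apolipoprotein. Its level was 1.26, 2.38 and 1.99 in p45-/- and 1.64, 1.11 and 1.70 in WT, a difference of 0.39 (SE 0.39, limma adjusted p = 0.743, and 0.639 with the replicate block). The highest values were p45-/- arrays 2 and 3, while array 1 lay within the WT range. Abcg1 passes cholesterol to larger lipoprotein particles. Its level was 2.89, 2.95 and 2.96 in p45-/- and 4.36, 2.72 and 3.04 in WT, a difference of -0.44 (SE 0.46, limma adjusted p = 0.759). WT array 1 alone stood apart, and without it the difference was 0.053. This is the array with the highest summed macrophage markers, whose part in the value was not tested.

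Synthesis was set against efflux by taking the median difference of the enzymes minus that of both transporters, which was -0.34. Per array, the list means of values centred on the WT mean of each gene were compared. The enzymes' mean minus the transporters' mean was -1.25, 0.15 and 0.21 for the p45-/- replicates and -1.67, 1.05 and 0.62 for the WT replicates. The p45-/- mean was -0.30 ± 0.83 (SD, n = 3). By construction the WT mean was 0, with an SD of 1.47 over its 3 arrays, so the spread within a group exceeded the difference between them. Pairs 1, 2 and 3 differed by 0.42, -0.90 and -0.41, with no common sign. On both replicate 1 arrays the enzymes were low relative to the transporters, on the other 4 they were not. No p is given, since the genes were chosen as a list and the levels of different probes share no scale.

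**Figure D4:**
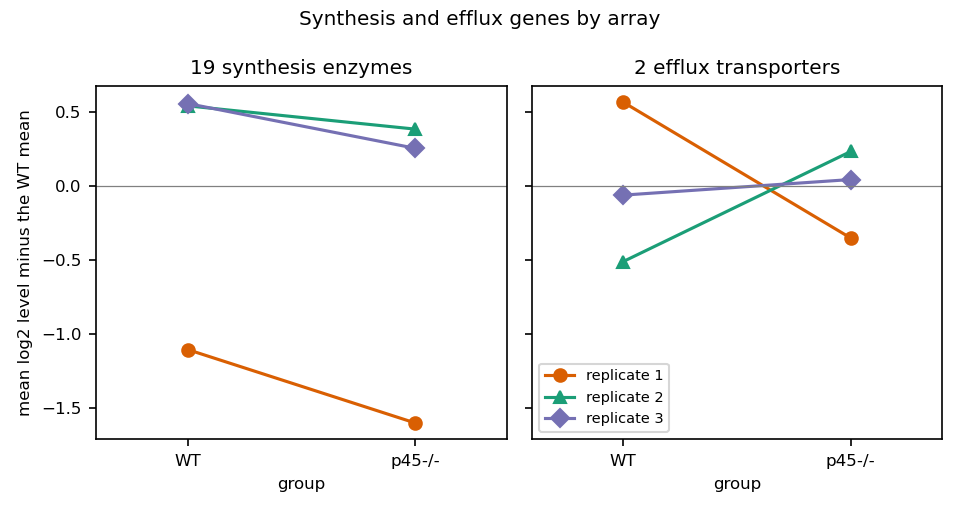
Mean log2 level, centred on the WT mean of each gene, of the 19 synthesis enzymes (left) and the 2 efflux transporters (right) on each array, with lines joining arrays of the same replicate number. For the enzymes all 3 lines slope down from WT to p45-/-, with replicate 1 more than 1 unit below 0 in both groups, while for the transporters the lines cross.

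Other genes of the pathway were read from 4 further lists, and 0 of their 51 tested genes passed in limma without or with the block. At an unadjusted p under 0.05 there were 7 without the block, a larger share than the 3.33% lower and 2.62% higher of all genes. With the block there were 9, beside 5.96% lower and 14.3% higher of all genes. In fatty acid synthesis 1 was lower and 1 higher, and in lipoprotein receptors and sterol trafficking 3 were lower and 0 higher. In the LXR list 2 were lower and 1 higher, and in SREBP processing 1 was lower and 0 higher. The lower genes were thus a larger share than over all genes and the higher ones a smaller share, and neither was tested. Abcg5, described below, counts among the lower genes in both fits. It passed the filter through WT alone, so the filter itself favoured a lower value, and counts without it are not given. Of 14 tested genes of fatty acid synthesis, 10 had a lower group mean, with a median of -0.33. For 12 of them both replicate 1 arrays were the lowest. Acss2, which makes acetyl-CoA from acetate, had a difference of -1.18 (limma adjusted p = 0.704, and 0.129 with the block), with p45-/- levels of -1.77, 0.54 and 0.19 and WT levels of -0.39, 1.56 and 1.32. Lpin1, a phosphatidate phosphatase, had levels of 0.31, 0.25 and 0.21 in p45-/- and -1.36, -0.60 and -0.37 in WT. The groups did not overlap for Lpin1, and the difference was 1.03 (limma adjusted p = 0.704, and 0.168 with the block).

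Of 16 genes of lipoprotein receptors and sterol trafficking, 12 had a lower group mean, with a median of -0.37, and 4 had both replicate 1 arrays lowest. Lrp8, a lipoprotein receptor, had levels of -2.48, -2.29 and -2.04 in p45-/- and -1.83, -0.59 and -0.93 in WT, a difference of -1.15 (limma adjusted p = 0.704, and 0.139 with the block). The groups did not overlap for Lrp8.

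In the list of LXR, further efflux, ester and oxysterol genes, 6 of 12 tested genes had a lower and 6 a higher group mean, with a median of 0.032. Abcg5, of a sterol export pair, was well above background in 0 of the 3 p45-/- samples and in all 3 WT samples. Its level in p45-/- was lower by at least 2.55-fold (limma adjusted p = 0.261, and 0.0743 with the block). It passed the filter through WT alone, and these p-values rest on p45-/- values that were not above background. The bound sets the WT mean against the lowest signal well above background on each p45-/- array. Abcg4, a relative of Abcg1, had levels of -2.67, -3.56 and -3.92 in p45-/- and -4.72, -4.60 and -4.61 in WT, a difference of 1.26 without overlap (limma adjusted p = 0.674, and 0.141 with the block). Among 9 tested genes of SREBP processing and sterol-regulated degradation, 8 had a lower group mean, with a median of -0.29. Rnf139, a sterol-sensing ubiquitin ligase, differed by -0.84 without overlap and Sec24d, a coat protein of vesicles leaving the endoplasmic reticulum, by -0.58 (limma adjusted p = 0.704 and 0.710).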

How the data were processed

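Total RNA (500 ng per sample) was amplified, labelled and hybridised to single-colour Agilent arrays, per the labels' protocols. The authors deposited spot intensity values extracted with Agilent Feature Extraction 10.7.3.1 per the file headers, while the submitters' processing notes name 10.1. In the deposited processed intensity, Feature Extraction had removed background and spatial trend array by array, with no scaling between arrays.

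From it, log2 values were taken and the 75th percentile over non-control probes was subtracted. Flagged outlier spots (32 to 80 per array) were set to missing, none of them a spot of a listed gene, and spots of a probe were averaged. Probes well above background on all arrays of a group were kept (23957 of 41174), and the probe with the highest mean level stood for a gene. Groups were compared with limma 3.58.1 in R 4.3.3 (lmFit and eBayes, two-sided, Benjamini-Hochberg over all 18210 genes, threshold 0.05), with 4 residual degrees of freedom. The number of arrays limits the precision. Whether the samples were separate animals is not stated, so p-values measure the spread between these samples.

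For replicates 1, 2 and 3, the deviations of a p45-/- array and its same-numbered WT array correlated at 0.647, 0.589 and 0.270. All exceed 0.1, and on that ground from the data alone the numbers were treated as pairs, although p45-/- array 3 correlated more with WT array 2 (0.616) than with its own number. The fit with the replicate block has 2 residual degrees of freedom. On simulated arrays with 18204 genes, both fits called 67% of genes changed by 4 log2 units, and 6% (no block) or 4% (block) of those changed by 2.

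The genes and lists were chosen with earlier results of these data known. Named were all listed genes and, per further list, any gene called and the 2 with the smallest unadjusted p, of which 1 is not reported here. The alternatives were other blocks, scalings, background corrections, filters, probe rules, array weights, the series' value table and left-out arrays. The files hold no mean spot signal, so normexp (offset 50) used the median signals. Fits combining the block with another setting were chosen after seeing the data.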

Additional observations from a re-analysis of the deposited data

How the results depend on the processing

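None of the 28 cholesterol genes passed the adjusted threshold under any alternative run, with a smallest adjusted p of 0.0779, for the replicate block with median scaling. Of 504 single-gene values under other settings 438 kept their direction and 66 changed sign. The count over all genes, 0 without a block, was 5 with the replicate block, 10 with median scaling, 1167 with array weights, 18 without replicate 1 of both groups, and 0 to 1 leaving out single arrays. With the replicate block it was 1589 with median scaling, 285 with normexp background and 1 with the mean of all probes of a gene. The array weights ran from 0.088 for p45-/- array 1 to 9.16 for WT array 3, so the weighted values rest very unequally on the arrays. The blocked fit gave the same differences for the cholesterol genes and moved none past the threshold. The enzymes' median of -0.36 was -0.11 with quantile normalization, -0.87 with median scaling, and -0.92 to 0.37 leaving out single arrays. The transporters' median of -0.023 ranged from -0.28 to 0.26 and synthesis minus efflux, -0.34, from -1.18 to 0.22 leaving out single arrays. The transporters' median was -0.53 with median scaling, 0.19 with quantile normalization, -0.19 with normexp background, 0.19 with array weights and 0.43 without replicate 1 of both groups, all within the spread of 0.84 between pairs. Synthesis minus efflux was -0.14 with normexp background and -0.67 without replicate 1 of both groups.

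Signs changed as follows, and beyond the scaling or the missing arrays themselves the cause was not tested. Within slide 2 Stard4 was 0.049. With normexp background Nsdhl was 0.011 and Insig1 0.074. With quantile normalization Acat2 was -0.094, Fdft1 0.0094, Ebp 0.021, Dhcr7 0.13, Scap 0.17 and Stard4 0.031. With median scaling Acat2 was -0.48, Hsd17b7 -0.31, Npc1 -0.29 and Abca1 -0.12. With the mean of all probes Fdft1 was 0.23 and Insig1 0.087. With array weights Acat2 was -0.51, Mvk 0.10, Mvd 0.050 and Scap 0.13. Without replicate 1 of both groups Acat2 was -0.48, Mvk 0.031, Mvd 0.0097, Ggps1 0.049, Scap 0.048 and Abcg1 0.072.

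Leaving out single arrays gave ranges that crossed 0 for Acat2 (-0.39 to 0.28), Hmgcs1 (-1.51 to 0.034), Mvk (-0.58 to 0.50), Pmvk (-0.93 to 0.25), Mvd (-0.88 to 0.64), Idi1 (-0.92 to 0.39), Fdft1 (-0.69 to 0.45), Sqle (-0.99 to 0.37), Lss (-1.29 to 0.44), Cyp51 (-1.21 to 0.48), Tm7sf2 (-1.14 to 0.30), Msmo1 (-1.03 to 0.31), Nsdhl (-0.74 to 0.56), Hsd17b7 (-0.48 to 0.92), Ebp (-0.58 to 0.13), Sc5d (-0.93 to 0.36), Dhcr7 (-0.70 to 0.49), Srebf2 (-0.72 to 0.025), Scap (-0.32 to 0.25), Insig1 (-0.75 to 0.31), Stard4 (-0.69 to 0.33) and Abcg1 (-0.76 to 0.053).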
